A study of Mus musculus with 8 samples.

Results

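The genes described here are the vascular endothelial growth factor (VEGF) ligands Vegfa, Vegfb, Vegfc and Pgf, their receptors Flt1, Kdr and Flt4, and 3 genes typical of blood vessel endothelium, Cd93, Vwf and Egfl7. They are 10 of the 56884 annotated genes of the count table, taken by gene name, and were selected with their differences between the genotypes already known. Their fold changes are therefore given as descriptions with no test, and only genes outside this selection are tested. The lists of further genes below were also written with earlier results of these data known, so their shares are descriptions too. The samples were 4 libraries of STK11 KO cells, a Lacun3 derivative in which Stk11 had been disrupted by CRISPR, and 4 libraries of STK11 WT cells, the parental Lacun3 line. Lacun3 is a mouse lung adenocarcinoma cell line. All 8 cultures were untreated, grown in the same serum-containing medium and harvested in logarithmic growth, away from the tumour microenvironment. Stk11 encodes LKB1, a kinase that switches on AMPK and its relatives and is lost in many lung adenocarcinomas. The knockout is a single edited line in the labels, and whether it is 1 clone or a pool is not stated there. The effect of the edit therefore cannot be told apart from other differences between these lines.

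VEGF ligands are secreted dimers that make endothelial cells divide, migrate and become leaky. VEGF-A binds the tyrosine kinase receptors encoded by Flt1 and Kdr. VEGF-B and placental growth factor (Pgf) bind the Flt1 product, and VEGF-C binds the Flt4 product, which drives the growth of lymphatic vessels. Most signalling of VEGF-A in endothelium passes through Kdr, whereas Flt1 binds VEGF-A tightly, signals weakly and in its secreted form holds ligand back. Tumour cells are a common source of VEGF-A, and transcription of Vegfa is raised by low oxygen through hypoxia-inducible factors.

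The promoters of Vegfa, Pgf and Flt1 are printed because these genes had the largest differences among the ligands and the receptors. Each runs from 250 bases before to 50 bases after a transcription start of RefSeq (build GRCm38.p6; the count table uses GRCm39), 5′ to 3′ on the gene's strand. Capitals mark, on either strand, the short motifs that were searched: the hypoxia response cores ACGTG and GCGTG, the whole cAMP response element TGACGTCA and its short form TGACG, which the whole element contains. The first is the upstream start of Vegfa at chr17:46032328-46032627 (minus strand). The next is the upstream start of Pgf at chr12:85177264-85177563 (minus strand), and the last is the start of Flt1 at chr5:147725962-147726261 (minus strand).
Vegfa: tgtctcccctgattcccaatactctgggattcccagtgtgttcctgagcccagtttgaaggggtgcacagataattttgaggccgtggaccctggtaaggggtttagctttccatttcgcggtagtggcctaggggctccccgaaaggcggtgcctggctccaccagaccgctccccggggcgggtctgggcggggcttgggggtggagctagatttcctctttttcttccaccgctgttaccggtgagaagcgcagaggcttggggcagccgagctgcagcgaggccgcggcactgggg
Pgf: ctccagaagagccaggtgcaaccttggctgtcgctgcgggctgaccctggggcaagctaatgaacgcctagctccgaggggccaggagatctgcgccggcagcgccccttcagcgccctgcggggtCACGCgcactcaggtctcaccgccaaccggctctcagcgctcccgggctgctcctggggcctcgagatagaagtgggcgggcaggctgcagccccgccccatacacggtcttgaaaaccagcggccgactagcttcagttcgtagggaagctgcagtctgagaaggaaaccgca
Flt1: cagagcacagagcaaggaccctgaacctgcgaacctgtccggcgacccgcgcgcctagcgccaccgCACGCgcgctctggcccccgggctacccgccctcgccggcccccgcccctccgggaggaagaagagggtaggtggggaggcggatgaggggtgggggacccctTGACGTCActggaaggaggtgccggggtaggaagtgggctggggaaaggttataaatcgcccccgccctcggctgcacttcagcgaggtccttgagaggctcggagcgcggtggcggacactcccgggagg

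The Vegfa sequence holds none of these motifs. That of Pgf holds GCGTG on the opposite strand at position -124 from the start. That of Flt1 holds GCGTG on the opposite strand at -184 and the whole TGACGTCA at -81. In all, 8 of the 10 genes had 12 promoters in the RefSeq table; Cd93 and Vwf are named only. GCGTG lay in 6 of the 12, those of Vegfa (a start further inside the gene), Vegfb, Pgf, Flt1, Kdr and Egfl7, against 32.4% of all 32851 promoters. ACGTG lay in 1 of the 12, the inner start of Vegfa, against 19.6% of all promoters, and there it overlapped a TGACG. That window lies downstream of the first Vegfa start, so its letters can also be part of the gene's transcribed sequence. The whole TGACGTCA lay in 1 of the 12, that of Flt1, against 1.79% of all promoters. TGACG lay in 3 of the 12, of Vegfa, Flt1 and Egfl7, against 20.8%. These are matches of letters in a fixed window, in promoters whose GC content was 62% for the Vegfa, 66% for the Pgf and 70.7% for the Flt1 sequence shown, against a median of 52.7% over all promoters.

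The libraries held 21441601 to 25715008 counts in STK11 KO and 18837263 to 21101904 counts in STK11 WT cells. Levels are given as CPM, counts scaled to the library size that edgeR's TMM method gives. At these depths, 3 counts over a whole group correspond to 0.0338 CPM in STK11 KO and 0.0358 CPM in STK11 WT. Stk11 itself stood at 34.7 ± 0.852 CPM in STK11 KO and 66.2 ± 1.79 CPM in STK11 WT libraries (SD, n = 4 each), between 33.4 and 35.3 CPM in STK11 KO and between 64.6 and 68.4 CPM in STK11 WT. By edgeR's quasi-likelihood test, this was a log2 fold change of -0.93 ± 0.06 (SE, adjusted p = 2.03e-12). Of 13707 genes past the filter on low counts, 9322 differed at an adjusted p under 0.05, which is 68.0%, with 34.4% higher and 33.6% lower in STK11 KO. With libraries scaled by their size alone, 28.6% were higher and 38.5% lower. The groups of 4 libraries did not overlap for 60.6% of the tested genes. STK11 KO replicate 3 stood apart from the other replicates, with a chi-square per degree of freedom of 13.0 to 18.9 in its pairs against 3.12 to 8.90 in the other pairs within a group. Each log2 difference of a member below is also given without it. The labels call the libraries independent biological replicates, and the p-values measure the spread between these cultures of each line.

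Of the 10 genes, 8 passed the filter on low counts. All 8 were past the threshold, 3 higher and 5 lower, and in 7 of them the groups did not overlap. Since these genes were chosen on this contrast and 68.0% of all tested genes passed, nothing is read from these counts. Cd93 passed the filter through the STK11 KO libraries alone and Vwf through the STK11 WT libraries alone, and Kdr and Flt4 did not pass. In bulk RNA, fewer cells with a transcript and less of it per cell cannot be told apart, and counts per gene do not separate splice forms such as the secreted form of Flt1.

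Vegfa and Pgf were the ligands with more transcript in STK11 KO cells. Vegfa (GRCm39 chr17:46327919-46343295, minus strand), the main growth factor of blood vessels, had 1111, 907, 962 and 1016 CPM in the STK11 KO libraries and 289, 262, 336 and 249 CPM in the STK11 WT libraries. Every STK11 KO library lay above every STK11 WT library, and the means were 999 ± 86.6 CPM in STK11 KO and 284 ± 38.5 CPM in STK11 WT (SD, n = 4 each). The fitted log2 fold change of Vegfa was 1.81 ± 0.08 (SE), or 3.52-fold, and 1.83 without STK11 KO replicate 3.

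Pgf (chr12:85213409-85224564, minus strand), named after the placenta and a ligand of the Flt1 product, had 167, 129, 112 and 156 CPM in the STK11 KO libraries and 35.6, 32.1, 35.7 and 28.6 CPM in the STK11 WT libraries. The groups did not overlap, and the lowest STK11 KO value, in replicate 3, was still above all 4 STK11 WT values. Pgf averaged 141 ± 25.1 CPM in STK11 KO and 33.0 ± 3.37 CPM in STK11 WT cells (SD, n = 4 each). Its log2 fold change was 2.09 ± 0.13 (SE), or 4.26-fold, and 2.19 without STK11 KO replicate 3.

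Vegfb and Vegfc were lower in STK11 KO cells. Vegfb (chr19:6959841-6965019, minus strand), a ligand of the Flt1 product linked to heart and muscle vessels and lipid uptake, had 43.2, 42.6, 37.3 and 41.4 CPM in the STK11 KO libraries and 63.6, 62.5, 59.3 and 60.5 CPM in the STK11 WT libraries. The groups were separate, with means of 41.1 ± 2.65 CPM in STK11 KO and 61.5 ± 1.94 CPM in STK11 WT (SD, n = 4 each). The log2 fold change of Vegfb was -0.58 ± 0.06 (SE), and -0.53 without STK11 KO replicate 3.

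Vegfc (chr8:54530641-54640131, plus strand), the lymphatic growth factor, had 4.75, 4.99, 5.39 and 5.46 CPM in the STK11 KO libraries and 8.18, 6.67, 6.55 and 6.69 CPM in the STK11 WT libraries. All STK11 KO values lay below all STK11 WT values, and STK11 WT replicate 1 stood above the other 3 of its group. Vegfc averaged 5.15 ± 0.337 CPM in STK11 KO and 7.02 ± 0.776 CPM in STK11 WT (SD, n = 4 each), a log2 fold change of -0.44 ± 0.12 (SE) and of -0.47 without STK11 KO replicate 3.

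**Figure D1:**
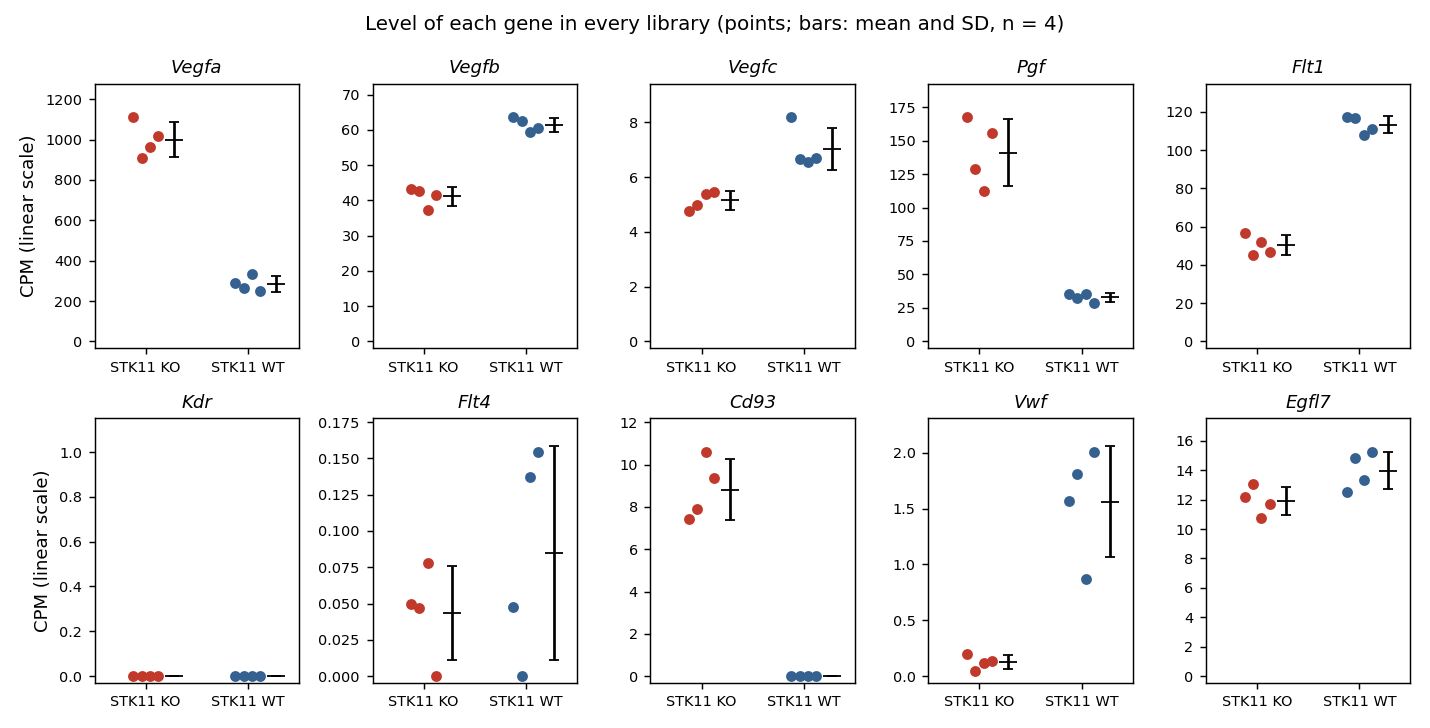
Level in CPM (linear scale, each panel with its own range) of the 10 genes in the 4 STK11 KO libraries (red, left) and the 4 STK11 WT libraries (blue, right); points are libraries and bars are mean and SD. Vegfa, Pgf and Cd93 lie higher and Vegfb, Vegfc, Flt1 and Vwf lower in every STK11 KO library than in any STK11 WT library, the ranges of Egfl7 overlap, Flt4 rests on 0 to 3 counts per library, and Kdr is at 0 in all 8.

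Per kilobase of exon, which allows levels of different genes to be compared, the ligands differed in composition as well as in amount. Exon lengths came from the GENCODE M21 annotation of GRCm38, as the union of the exons of all annotated transcripts of a gene, 13504 bases for Flt1. The transcripts made in these cells may be shorter, so levels per kb compare genes only roughly. The 4 ligand genes together had 309 ± 28.6 CPM per kb in STK11 KO cells, between 285 and 346 in the libraries, and 119 ± 9.68 CPM per kb in STK11 WT cells, between 108 and 130 (SD, n = 4 each). Vegfa made up 75.4% ± 1.62 of this sum in STK11 KO and 55.6% ± 3.10 in STK11 WT. Pgf made up 15.6% ± 1.58 in STK11 KO and 9.56% ± 0.384 in STK11 WT. Vegfb made up 8.32% ± 0.686 in STK11 KO and 32.4% ± 2.91 in STK11 WT. Vegfc made up 0.685% ± 0.0867 in STK11 KO and 2.42% ± 0.282 in STK11 WT. In none of the 4 shares did the groups overlap.

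The order of Pgf and Vegfb was opposite in the genotypes: Pgf was at 1.89 ± 0.258 times the level of Vegfb per kb in STK11 KO and at 0.297 ± 0.0309 times in STK11 WT libraries (SD, n = 4 each). Vegfa was at 9.11 ± 0.785 times the level of Vegfb in STK11 KO and at 1.73 ± 0.268 times in STK11 WT. The ratio of Vegfa to Pgf, the pair that was higher in STK11 KO, was 4.87 ± 0.639 in STK11 KO and 5.83 ± 0.409 in STK11 WT. Its ranges overlapped, at 4.42 to 5.80 in STK11 KO and 5.50 to 6.38 in STK11 WT. These ratios follow from the values that chose the genes and were not tested.

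**Figure D2:**
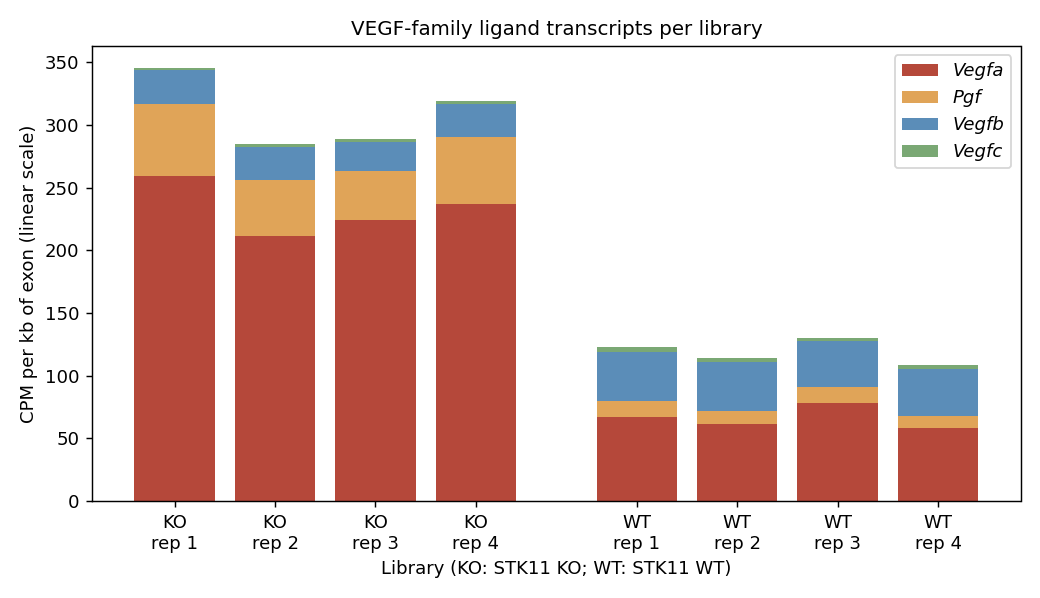
Stacked level of the 4 ligand genes in CPM per kb of exon (linear scale from 0) in each STK11 KO library (left) and each STK11 WT library (right). The STK11 KO bars reach 285 to 346 CPM per kb, mostly of Vegfa, and the STK11 WT bars 108 to 130 CPM per kb, where Vegfb takes 32.4% on average.

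Of the 3 receptor genes, Flt1 alone had a level above a few counts, and it was lower in STK11 KO cells. Flt1 (chr5:147498414-147662821, minus strand), which encodes VEGF receptor 1, had 56.8, 45.4, 52.1 and 46.8 CPM in the STK11 KO libraries and 117, 117, 108 and 111 CPM in the STK11 WT libraries. The groups were well apart, and the means were 50.3 ± 5.23 CPM in STK11 KO and 113 ± 4.47 CPM in STK11 WT (SD, n = 4 each). The log2 fold change of Flt1 was -1.17 ± 0.07 (SE), and -1.19 without STK11 KO replicate 3. The ligands that bind the Flt1 product (Vegfa, Vegfb and Pgf) summed to 82.9 ± 7.06 times the level of Flt1 in CPM per kb in STK11 KO libraries. In STK11 WT libraries they summed to 13.8 ± 1.46 times that level. These ratios rest on annotated exon lengths and are not numbers of molecules. RNA levels say nothing of how much ligand or receptor protein was made.

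Kdr (chr5:76093487-76139118, minus strand), the receptor through which VEGF-A mainly acts on endothelium, had 0 counts in all 8 libraries, which allows up to 0.0338 CPM in the STK11 KO and 0.0358 CPM in the STK11 WT group (3 counts over the group, counting error only). Flt4 (chr11:49500090-49543566, plus strand), the receptor of VEGF-C, had 1, 1, 2 and 0 counts in the STK11 KO libraries and 1, 0, 3 and 3 counts in the STK11 WT libraries. The ranges of Flt4 overlap, and 4 counts in STK11 KO and 7 counts in STK11 WT are too few to compare.

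The endothelial-type gene Cd93 was detected in STK11 KO cells and in no STK11 WT library. Cd93 (chr2:148278560-148285483, minus strand) encodes a C-type lectin-like receptor of endothelial and myeloid cells that takes part in endothelial adhesion. It had 150, 168, 273 and 202 counts in the STK11 KO libraries, or 7.43, 7.91, 10.6 and 9.35 CPM, and 0 counts in each STK11 WT library. The highest value was that of STK11 KO replicate 3, and the lowest was still 150 counts. Its mean in STK11 KO was 8.82 ± 1.44 CPM (SD, n = 4). By the summed counts of the groups, 793 in STK11 KO set against 3 over the STK11 WT group, each scaled by TMM-adjusted library size, Cd93 was at least 249.6-fold higher in STK11 KO. A fitted log2 fold change of such a gene depends on the prior count and is not used as a size.

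Vwf went the other way at a low level. Vwf (chr6:125523737-125663642, plus strand) encodes von Willebrand factor, which endothelial cells and megakaryocytes make, which tethers platelets and which carries factor VIII. It had 4, 1, 3 and 3 counts in the STK11 KO libraries and 33, 39, 19 and 39 counts in the STK11 WT libraries. No library of one group reached the other, but the STK11 KO level of 0.125 ± 0.0624 CPM rests on 11 counts in all, against 1.56 ± 0.495 CPM and 130 counts in STK11 WT (SD, n = 4 each). The level in STK11 WT was 12.5 times that in STK11 KO (95% Clopper-Pearson interval 6.77 to 25.7, counting error only). The fitted log2 fold change, KO over WT, was -3.59 ± 0.41 (SE), or -3.55 without STK11 KO replicate 3.

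Egfl7 differed least. Egfl7 (chr2:26470026-26483132, plus strand) encodes a secreted matrix-associated protein of endothelial cells and is the host gene of the microRNA Mir126a. It had 12.2, 13.0, 10.7 and 11.7 CPM in the STK11 KO libraries and 12.5, 14.8, 13.3 and 15.2 CPM in the STK11 WT libraries. The groups overlapped, since STK11 KO replicate 2 lay above STK11 WT replicate 1. Egfl7 averaged 11.9 ± 0.958 CPM in STK11 KO and 14.0 ± 1.27 CPM in STK11 WT (SD, n = 4 each), with a log2 fold change of -0.23 ± 0.09 (SE) and of -0.18 without STK11 KO replicate 3. Over 6482 bases it lies in the same stretch and on the same strand as Gm20532, a gene annotated as protein-coding that had 0 counts in every library, so how reads common to both were assigned is not known. Its end overlaps 64 bases of Agpat2 on the opposite strand. No source used here gives the strand setting of the counting, so reads from that stretch cannot be told apart from those of Agpat2 (2622 counts in STK11 KO, 2036 in STK11 WT). Mir126a had 0 counts in these mRNA libraries, which do not capture mature microRNAs, so nothing is known here of its level. No other member overlaps an annotated gene.

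Ranked by CPM per kb, the order in STK11 KO began with Vegfa at 233 ± 20.2, Pgf at 48.6 ± 8.65 and Vegfb at 25.6 ± 1.65 (SD, n = 4). Then came Flt1 at 3.72 ± 0.387, Egfl7 at 3.33 ± 0.267, Vegfc at 2.10 ± 0.138, and Cd93 at 1.32 ± 0.215 CPM per kb. Last were Vwf at 0.00779, Flt4 at 0.00529 and Kdr at 0 CPM per kb. In STK11 WT the order was Vegfa at 66.3 ± 8.98, Vegfb at 38.3 ± 1.21, Pgf at 11.4 ± 1.16 and Flt1 at 8.39 ± 0.331 CPM per kb. Below them were Egfl7 at 3.90 ± 0.355, Vegfc at 2.87 ± 0.317, Vwf at 0.0973 ± 0.0308, Flt4 at 0.0103, and Kdr and Cd93 at 0 CPM per kb. The neighbours in STK11 KO whose ranges overlapped were Flt1 with Egfl7, Vwf with Flt4 and Flt4 with Kdr. In STK11 WT only Flt4, Kdr and Cd93 overlapped. Among 11738 tested protein-coding genes, Vegfa stood above 98.5% in STK11 KO and above 94.5% in STK11 WT. Pgf stood above 91.7% of them in STK11 KO and 65.1% in STK11 WT. Vegfb stood above 83.6% in STK11 KO and 89.6% in STK11 WT. Flt1 stood above 33.8% of these genes in STK11 KO and 56.3% in STK11 WT, whereas Cd93, even where it was detected, stood above 17.6%.

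Of the wider set of ligands, co-receptors and ligand-processing genes, 16 of 21 listed genes were tested, and 10 passed, 5 in each direction, or 62.5% against 68.0% of all tested genes. Their median log2 fold change was -0.04, against 0.01 for all tested genes. The 5 higher in STK11 KO were Itgb3, Itgav, Ccbe1, Pcsk7 and Nckap1, and the 5 lower were Vegfd, Nrp1, Hspg2, Ctnnd1 and Ccn2. Itgb3, the beta 3 integrin subunit that pairs with the Itgav product, averaged 117 ± 9.53 CPM in STK11 KO and 19.9 ± 0.895 CPM in STK11 WT (log2 fold change 2.56 ± 0.07 SE; edgeR quasi-likelihood test, adjusted p = 7.77e-19). Ccbe1, a secreted protein that promotes the processing of VEGF-C, averaged 11.2 ± 2.19 CPM in STK11 KO and 3.61 ± 0.491 CPM in STK11 WT (1.62 ± 0.15, adjusted p = 2.26e-09). Adamts3, the protease that it assists, had 0 counts in every library. Nrp1, a co-receptor of VEGF-A and of semaphorins, averaged 2.13 ± 0.159 CPM in STK11 KO and 6.88 ± 0.666 CPM in STK11 WT (-1.69 ± 0.14, adjusted p = 5.18e-10). Its relative Nrp2, a co-receptor of VEGF-C, did not pass, at 222 ± 22.0 CPM in STK11 KO and 228 ± 6.79 CPM in STK11 WT. Ccn2, a matrix-associated protein that can bind VEGF-A, averaged 19.8 ± 2.41 CPM in STK11 KO and 459 ± 15.0 CPM in STK11 WT (-4.54 ± 0.07, adjusted p = 3.73e-22). Hspg2, the basement membrane proteoglycan perlecan that binds VEGF, was lower by less, at 278 ± 31.2 CPM in STK11 KO and 369 ± 16.8 CPM in STK11 WT (-0.41 ± 0.07, adjusted p = 1.08e-05).

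Of 42 listed intermediates of VEGF receptor signalling, 39 were tested, and 15 were higher, 17 lower and 7 not past the threshold, so that 82.1% passed, against 68.0% of all tested genes. Their median log2 fold change was -0.04. Of the 39 tested, 2 higher genes (Cdh5 and Nos3) and 3 lower genes (Plcg2, Sphk1 and Gab1) passed and differed at least 2-fold. Of all tested genes, 16.4% did so, and nothing is read from this count. Map2k1, the ERK-activating kinase MEK1, averaged 322 ± 5.35 CPM in STK11 KO and 200.3 ± 2.77 CPM in STK11 WT (log2 fold change 0.68 ± 0.05). Ppp3ca, a catalytic subunit of the phosphatase calcineurin, was lower, at 144 ± 2.05 CPM in STK11 KO and 262 ± 6.41 CPM in STK11 WT (-0.86 ± 0.05; edgeR quasi-likelihood test, adjusted p = 5.06e-13). Nfatc1, a transcription factor that calcineurin activates, was lower, at 16.9 ± 1.53 CPM in STK11 KO and 31.4 ± 1.08 CPM in STK11 WT (-0.89 ± 0.08, adjusted p = 6.82e-10). Ppp3cb, another catalytic subunit, was higher, at 103 CPM in STK11 KO and 81.1 CPM in STK11 WT. Sphk1, which makes sphingosine 1-phosphate, averaged 8.98 ± 1.35 CPM in STK11 KO and 26.7 ± 2.50 CPM in STK11 WT (-1.56 ± 0.10, adjusted p = 4.33e-12).

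Of 39 genes of the angiopoietin, apelin, PDGF and Notch systems, 25 were tested, and 9 were higher and 11 lower, so that 20 of 25 passed, against 68.0% of all tested genes. Their median log2 fold change was -0.09. The receptors of the angiopoietins were all but absent, Tek with 0 counts in STK11 KO and 4 counts in STK11 WT and Tie1 with 0 in both. Notch4, a Notch receptor prominent in endothelium, averaged 34.9 ± 3.67 CPM in STK11 KO and 9.33 ± 0.676 CPM in STK11 WT (log2 fold change 1.91 ± 0.09; edgeR quasi-likelihood test, adjusted p = 2.14e-14). Notch1, which lies next to Egfl7, averaged 18.1 CPM in STK11 KO and 48.4 CPM in STK11 WT (-1.42 ± 0.08). The PDGF ligand genes moved in both directions. Pdgfa averaged 55.2 ± 3.44 CPM in STK11 KO and 35.8 ± 0.834 CPM in STK11 WT (0.62 ± 0.06, adjusted p = 7.75e-09). Pdgfb, which recruits pericytes, averaged 1.68 ± 0.503 CPM in STK11 KO and 11.8 ± 0.357 CPM in STK11 WT (-2.79 ± 0.15, adjusted p = 1.51e-13). Pdgfd averaged 1.33 ± 0.323 CPM in STK11 KO and 13.6 ± 0.430 CPM in STK11 WT (-3.33 ± 0.14, adjusted p = 3.27e-15). Ephb4, the receptor that marks veins, was lower, at 26.6 ± 2.65 CPM in STK11 KO and 64.8 ± 0.777 CPM in STK11 WT (-1.28 ± 0.07, adjusted p = 1.40e-13). Met, the receptor of hepatocyte growth factor, was higher, at 456 ± 31.7 CPM in STK11 KO and 300.03 ± 10.4 CPM in STK11 WT (0.60 ± 0.06, adjusted p = 3.20e-09).

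Among 23 genes listed as inhibitors of vessel growth, not all of them secreted or matrix proteins, 15 were tested. Of these, 8 were lower, 4 higher (Svbp, Timp1, Timp3 and Angptl4) and 3 not past the threshold (Adamts1, Cxcl10 and Spry2). The share that passed was 12 of 15, against 68.0% of all tested genes, and the share lower was 8 of 15, against 33.6%. With DESeq2 or a replicate block, among other alternatives, 3 were higher. Their median log2 fold change was -0.79, against 0.01 for all tested genes. This list was written with earlier results of these data known, so these shares are descriptions. Thbs1, thrombospondin 1, averaged 13.3 ± 1.32 CPM in STK11 KO and 203 ± 15.4 CPM in STK11 WT (log2 fold change -3.94 ± 0.08; edgeR quasi-likelihood test, adjusted p = 2.55e-21). Sparc, a matrix protein that binds VEGF-A, averaged 33.9 ± 2.47 CPM in STK11 KO and 156 ± 4.76 CPM in STK11 WT (-2.20 ± 0.06, adjusted p = 1.08e-18). Col4a2, a basement membrane collagen with an antiangiogenic fragment, averaged 77.5 ± 6.84 CPM in STK11 KO and 331 ± 11.6 CPM in STK11 WT (-2.09 ± 0.06, adjusted p = 4.28e-18). Timp3, which blocks VEGF-A binding to Kdr, went the other way, at 90.1 ± 22.3 CPM in STK11 KO and 48.1 ± 4.80 CPM in STK11 WT (0.91 ± 0.18, adjusted p = 0.00206). So did Timp1, at 53.4 ± 2.55 CPM in STK11 KO and 34.3 ± 2.10 CPM in STK11 WT (0.64 ± 0.06, adjusted p = 8.53e-09). Angptl4 was higher as well, at 10.5 ± 1.31 CPM in STK11 KO and 6.46 ± 0.269 CPM in STK11 WT (0.71 ± 0.11, adjusted p = 6.57e-06).

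Of 27 known regulators of Vegfa transcription or mRNA stability, 25 were tested, and 19 were higher in STK11 KO, 4 lower (Zfp36l1, Hif1an, Egln2 and Stat3) and 2 not past the threshold (Zfp36l2 and Mtf1). The share higher was therefore 19 of 25 against 34.4% of all tested genes, and 15 of 25 against 28.6% with scaling by library size alone. The median log2 fold change was 0.46, against 0.01 for all tested genes. As with the inhibitors, the list was written with earlier results of these data known, so these shares are descriptions. Genes of the hypoxia-inducible factors were among them. Epas1 averaged 56.6 ± 1.64 CPM in STK11 KO and 23.0 ± 0.761 CPM in STK11 WT (log2 fold change 1.30 ± 0.06; edgeR quasi-likelihood test, adjusted p = 2.12e-14). Hif1a averaged 1028 ± 54.1 CPM in STK11 KO and 594 ± 10.96 CPM in STK11 WT (0.79 ± 0.06, adjusted p = 2.11e-11). Egln1, the prolyl hydroxylase that marks these factors for breakdown and is itself one of their targets, averaged 166 ± 8.55 CPM in STK11 KO and 91.1 ± 5.13 CPM in STK11 WT (0.86 ± 0.06, adjusted p = 5.71e-12). Zfp36l1, an RNA-binding protein that speeds the decay of Vegfa mRNA, averaged 89.2 ± 5.50 CPM in STK11 KO and 289 ± 12.8 CPM in STK11 WT (-1.69 ± 0.06, adjusted p = 4.59e-17). Hif1an, which blocks hypoxia-inducible factor activity, averaged 27.7 ± 1.08 CPM in STK11 KO and 36.5 ± 2.19 CPM in STK11 WT (-0.39 ± 0.07, adjusted p = 2.06e-05). Stat3 was lower by less, at 109 ± 7.15 CPM in STK11 KO and 126 ± 3.50 CPM in STK11 WT (-0.21 ± 0.06, adjusted p = 0.00226). The list mixes genes that raise and genes that lower Vegfa, so its median has no single reading for Vegfa. Whether any of these regulators bears on Vegfa in these cells was not tested.

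The list of CD93, von Willebrand factor and Egfl7 partners and relatives had 33 genes, of which 22 were tested, with 8 higher and 7 lower, or 68.2% past the threshold, against 68.0% of all tested genes. The median log2 fold change was 0.00, and with scaling by library size alone 5 were higher and 8 lower. Igfbp7, a secreted ligand of CD93, averaged 11.7 ± 0.824 CPM in STK11 KO and 59.6 ± 2.88 CPM in STK11 WT (log2 fold change -2.35 ± 0.07; edgeR quasi-likelihood test, adjusted p = 1.04e-17). Mmrn2, the endothelial matrix ligand of CD93, had 1 count in STK11 KO and 3 counts in STK11 WT. Moesin, which links CD93 to actin, was slightly lower, with Msn at 978 ± 44.6 CPM in STK11 KO and 1283 ± 39.98 CPM in STK11 WT (-0.39 ± 0.06, adjusted p = 2.14e-06). Gipc1, an adaptor that binds the tail of CD93, was higher, at 111 ± 5.41 CPM in STK11 KO and 76.2 ± 5.56 CPM in STK11 WT (0.54 ± 0.06, adjusted p = 3.89e-08). Selp, P-selectin, which endothelium stores together with von Willebrand factor, averaged 15.5 ± 1.42 CPM in STK11 KO and 5.87 ± 0.823 CPM in STK11 WT (1.40 ± 0.11, adjusted p = 1.82e-10), the opposite direction to Vwf. Thbd, thrombomodulin, a relative of Cd93, is described with its locus.

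**Figure D3:**
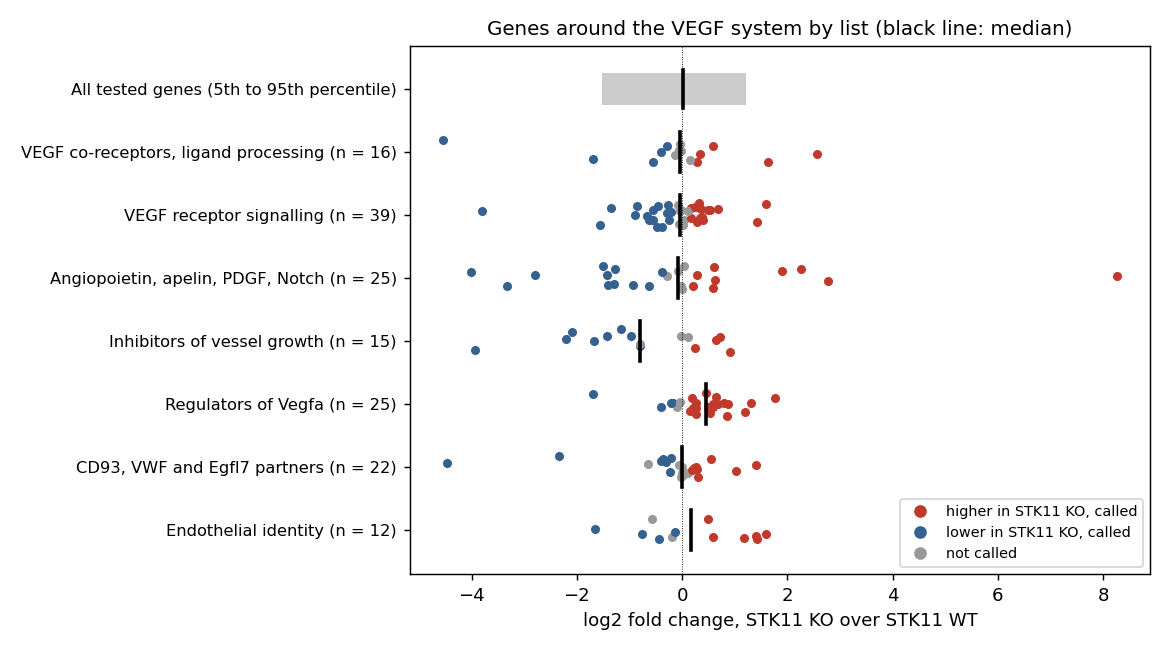
Log2 fold change, STK11 KO over STK11 WT, of the tested genes in each of 7 lists around the VEGF system; points are genes (red higher, blue lower, grey not past an adjusted p of 0.05), black lines are medians, and the grey bar spans the 5th to 95th percentile of all tested genes. The medians are near 0 except for the inhibitors of vessel growth (-0.79) and the regulators of Vegfa (0.46); the point at 8.26 is Hgf, which had 0 counts in STK11 WT, so that its fitted value is not a size, although it lies above the list's median in any case.

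The endothelial-type label was set against 49 endothelial identity genes. Of these, 12 had 0 counts in all 8 libraries, 37 were under the filter, those 12 included, and 12 were tested, with 6 higher, 4 lower and 2 not past the threshold (Eng and Ecscr), so that 83.3% passed, against 68.0% of all tested genes. The number lower was 2 of 12 tested without STK11 KO replicate 4 and 2 of 13 without STK11 WT replicate 4. With no filter on low counts it was 7 of 37, and 8 were higher. The listed genes at 0 throughout were Tie1, Fli1, Sox17, Emcn, Cldn5, Clec14a, Icam2, S1pr1, Lmo2, Prox1, Ramp2 and Etv2. Pecam1 had 11 counts in STK11 KO and 5 counts in STK11 WT, and Erg 0 counts in STK11 KO and 2 counts in STK11 WT. So Cd93, Vwf and Egfl7 were measured in cells in which 37 of the 49 listed endothelial identity genes were under the filter on low counts. Cdh5, vascular endothelial cadherin, was among the 12 tested, at 4.17 ± 0.623 CPM in STK11 KO and 1.36 ± 0.326 CPM in STK11 WT (log2 fold change 1.60 ± 0.20; edgeR quasi-likelihood test, adjusted p = 1.89e-07). Nos3, endothelial nitric oxide synthase, stood at 3.41 ± 0.984 CPM in STK11 KO and 1.24 ± 0.127 CPM in STK11 WT (1.43 ± 0.23, adjusted p = 9.58e-06). Ets1, a transcription factor of endothelium and of many other cells, averaged 199.8 ± 9.64 CPM in STK11 KO and 87.8 ± 1.98 CPM in STK11 WT (1.19 ± 0.05, adjusted p = 6.33e-15). The lower ones were Procr, Klf2, Rasip1 and Cav1. Procr, the endothelial protein C receptor, stood at 83.1 ± 6.44 CPM in STK11 KO and 141 ± 2.60 CPM in STK11 WT (-0.77 ± 0.06, adjusted p = 6.71e-11). The call of Rasip1 (-0.43 ± 0.17, adjusted p = 0.0299) was lost when any of 5 libraries was left out.

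Markers of other cells were as follows, and their part in these results was not tested. The summed level of 15 epithelial and lung adenocarcinoma markers was 8276 to 9284 CPM in the STK11 KO libraries and 9392 to 9876 CPM in the STK11 WT libraries. Of the 9 that were tested, 2 were higher (Krt19 and Elf3), 4 lower (Epcam, Krt7, Krt18 and Muc1) and 3 not past the threshold (Krt8, Cdh1 and Napsa). That is 66.7% past it, against 68.0% of all tested genes, so nothing is read from this count. The median log2 fold change was -0.30, against 0.01 for all tested genes. Elf3, an epithelial transcription factor, stood at 275 ± 39.2 CPM in STK11 KO and 81.5 ± 7.19 CPM in STK11 WT, and the keratin gene Krt7 at 317 ± 35.7 CPM in STK11 KO and 1180.3 ± 25.4 CPM in STK11 WT. Krt8 stood at 2717 ± 168 CPM in STK11 KO and 2960 ± 121 CPM in STK11 WT, Cdh1 at 153 ± 12.04 CPM in STK11 KO and 151 ± 7.82 CPM in STK11 WT. Epcam stood at 22.2 ± 3.79 CPM in STK11 KO and 27.3 ± 2.86 CPM in STK11 WT. Genes that define lung epithelium were at or near 0, Sftpc with 0 counts in all libraries, and Nkx2-1 and Sftpb each with 0 counts in STK11 KO and 1 count in STK11 WT. The summed level of 12 leukocyte markers was 13.7 to 26.1 CPM in STK11 KO and 47.1 to 53.4 CPM in STK11 WT, nearly all of it Cd68. Ptprc, which defines leukocytes, had 0 counts in STK11 KO and 1 count in STK11 WT. The 12 fibroblast and pericyte markers summed to 2.02 to 3.07 CPM in STK11 KO and 4.37 to 5.95 CPM in STK11 WT, mostly Col1a1, with Col1a2 at 0. The 9 platelet and megakaryocyte markers summed to 10.4 to 13.1 CPM in STK11 KO and 6.19 to 7.33 CPM in STK11 WT. Ppbp took 7.47 CPM in STK11 KO and 1.95 CPM in STK11 WT and Itga2b 4.00 CPM in STK11 KO and 3.97 CPM in STK11 WT.

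Position along the chromosome was not used to choose the genes. The nearest tested protein-coding gene on each side of each member, 20 in all, lay at up to 1359 kb (Xrn2, from Cd93). Of these, 15 passed the threshold, against 68.0% of all tested genes. There were 13 higher, against 34.4% of all tested genes, 2 lower (Notch1 and Xrn2) and 5 not past it (Mrps18a, Fkbp2, Dlst, Pan3 and Cd9). Vegfa, Pgf and Flt1 each had a neighbour that passed on one side and one that did not on the other. Mrps18a, next to Vegfa, stood at 34.2 CPM in STK11 KO and 33.3 CPM in STK11 WT. Dlst, next to Pgf, stood at 351 CPM in STK11 KO and 331 CPM in STK11 WT, and Pan3, next to Flt1, at 53.9 CPM in STK11 KO and 48.2 CPM in STK11 WT. On the other side of Vegfa, 1600014C23Rik was higher at a low level, with 1.24 CPM in STK11 KO and 0.434 CPM in STK11 WT (log2 fold change 1.48). Eif2b2, on the other side of Pgf, stood at 133 CPM in STK11 KO and 90.9 CPM in STK11 WT (0.54), and Pomp, on the other side of Flt1, at 79.6 CPM in STK11 KO and 69.9 CPM in STK11 WT (0.19). Dnajc4, 0.26 kb from Vegfb, was higher in STK11 KO, at 15.3 CPM against 9.58 CPM in STK11 WT (log2 fold change 0.67), where Vegfb was lower.

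Within 500 kb on each side of Cd93 the table holds 25 annotated genes, 14 of them with a count and 5 with at least 100 counts over the 8 libraries. Thbd, at -35.4 kb from Cd93 and of the same receptor family, was singled out after its values were seen. It had 10, 6, 26 and 15 counts in the STK11 KO libraries and 0 in each STK11 WT library. That is 0.620 ± 0.309 CPM in STK11 KO (SD, n = 4), too low to have passed the filter, so Thbd was not tested. By the summed counts, 57 in STK11 KO set against 3 over the STK11 WT group, it was at least 17.9-fold higher in STK11 KO. As for Cd93, the highest value was that of STK11 KO replicate 3. The next genes with substantial counts lie 229 kb or more away and differed far less. Nxt1 stood at 18.5 CPM in STK11 KO and 12.2 CPM in STK11 WT (log2 fold change 0.60; edgeR quasi-likelihood test, adjusted p = 2.33e-06). Gzf1 had a log2 fold change of 0.46 and Napb of 0.42. Cst3 stood at 141 CPM in STK11 KO and 212 CPM in STK11 WT (-0.59, adjusted p = 4.66e-09). Low counts of 2 cystatin-family genes went the other way from Cd93, and neither was tested. Cst13 had 0, 1, 1 and 2 counts in the STK11 KO libraries and 7, 10, 5 and 5 counts in the STK11 WT libraries, and Cstdc2 had 0 counts in STK11 KO and 2, 4, 1 and 2 counts in the STK11 WT libraries.

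**Figure D4:**
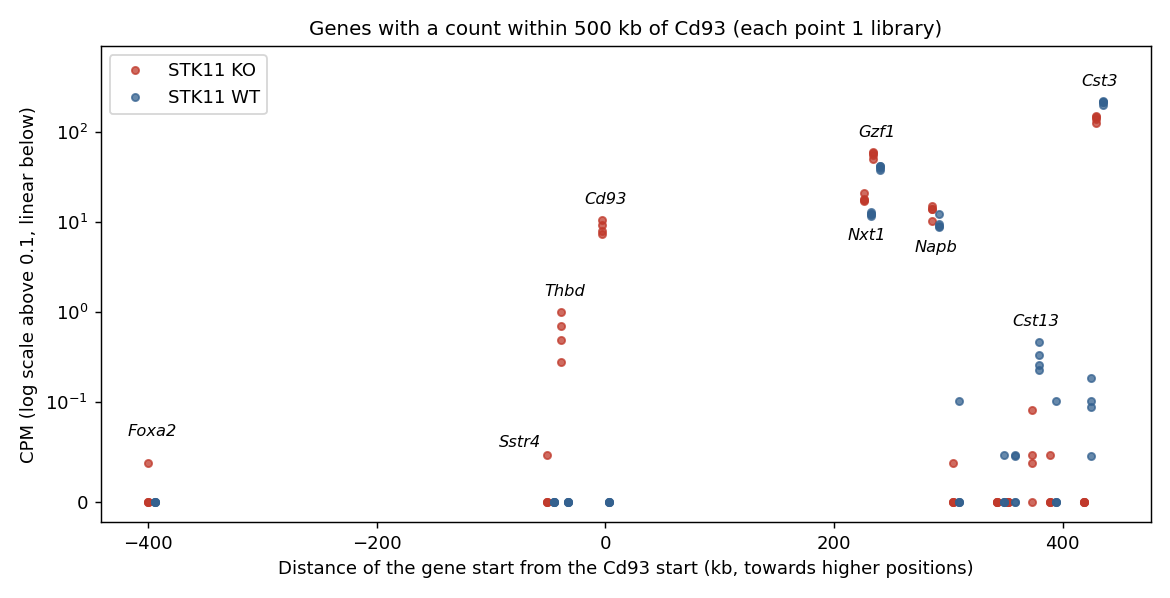
Level in CPM (log scale above 0.1, linear below) of the genes with a count within 500 kb of Cd93, by the distance of their start from that of Cd93 in kb; each point is 1 library, STK11 KO (red) drawn just left of STK11 WT (blue). Cd93 and Thbd have points above 0 in all 4 STK11 KO libraries and in no STK11 WT library, Foxa2 and Sstr4 have 1 count each in 1 STK11 KO library, Nxt1, Gzf1, Napb and Cst3 are present in both groups, and Cst13 and Cstdc2 lie higher in STK11 WT.

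The genes with patterns most like those of Vegfa and Cd93 were taken by the Euclidean distance between centred log2 CPM profiles over the 8 libraries, a measure that largely follows the difference between the genotypes. For Vegfa the nearest was Mxd1, a MAX partner that opposes MYC, at a distance of 0.159 (177 ± 18.0 CPM in STK11 KO and 52.4 ± 6.39 CPM in STK11 WT). Next were Slc4a8, a sodium-coupled bicarbonate transporter, at 0.180 (108 ± 8.47 CPM in STK11 KO and 30.3 ± 2.63 CPM in STK11 WT), and Lif, a cytokine of the interleukin 6 family, at 0.239 (229 ± 16.3 CPM in STK11 KO and 58.8 ± 5.63 CPM in STK11 WT). For Cd93 they were Angptl8, a regulator of lipoprotein lipase, at 0.720, Gng2, a G protein gamma subunit, at 0.809, and Dmkn, the secreted protein dermokine, at 0.837. None of these 3 was as absent from STK11 WT as Cd93. Angptl8 averaged 40.8 ± 4.14 CPM in STK11 KO and 0.214 ± 0.0197 CPM in STK11 WT, and Gng2 20.9 ± 1.52 CPM in STK11 KO and 0.168 ± 0.0518 CPM in STK11 WT. Dmkn averaged 65.3 ± 4.50 CPM in STK11 KO and 0.607 ± 0.228 CPM in STK11 WT.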

How the data were processed

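Gene expression was measured by bulk mRNA sequencing of 4 STK11 KO and 4 STK11 WT libraries. Per the labels' protocols, they were made with a stranded Illumina mRNA kit (100 ng of input) and read as pairs of 51 bp. STAR 2.7.9a, featureCounts 1.6.0, FastQC 0.11.8, edgeR, limma and the build GRCm39 are named in the submitters' processing notes. No source used here gives the strand setting or the treatment of reads with several places.

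The authors deposited raw counts per gene and a table of log2 CPM in voom's form, which served only in an alternative. Counts were tested with edgeR 4.0.16 (glmQLFit robust, glmQLFTest; TMM scaling, filterByExpr, genotype as the only term), with Benjamini-Hochberg adjustment over all 13707 tested genes and a threshold of 0.05. "Higher" and "lower" in list counts mean past it. SE is the absolute log2 fold change over the square root of F. The steps were checked on simulated counts in which few genes were changed. That check does not cover scaling under a change as broad as in these data. CPM divides raw counts by TMM-scaled library sizes, and per kb by GENCODE M21 exon lengths matched on gene ID. Where a group had 0 counts, the bound uses 3 counts over the group; bounds and intervals cover counting error only. Within-group chi-square tests found no duplicated library.

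The 10 genes and all lists were chosen with earlier results of these data known. Named genes were Stk11, the members, up to 3 risers and 3 fallers per list with the smallest adjusted p and at least 1 CPM in the higher group, 3 genes each most like Vegfa and Cd93, the members' neighbours, and defining markers; other genes named were picked after their values were seen. Alternatives were DESeq2 1.42.0, other scalings and filters, limma 3.58.1 (voom, and on the deposited values), a replicate block, and leaving out each library. Protein sequences were not analysed here. Computations used R 4.3.3, Python 3.11.15, pandas 2.3.3, numpy 2.4.6, scipy 1.17.1 and matplotlib 3.10.9.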

Additional observations from a re-analysis of the deposited data

Results flagged for a closer look

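In 150 groups of 4 libraries (75 genes), 6 held a library that stood apart from the other 3 by Dixon's criterion, and chance flags about 1 in 20 groups. Among the members this was Vegfc, at 8.18 CPM in STK11 WT replicate 1 against 6.55 to 6.69 CPM in the other STK11 WT libraries. In STK11 KO replicate 3, Angptl4 stood at 12.5 CPM against 9.77 to 10.1 CPM in the other STK11 KO libraries, and Klf2 at 0.931 CPM against 0.248 to 0.324 CPM. Mrps18a, next to Vegfa, stood at 28.3 CPM in STK11 KO replicate 1 against 35.8 to 36.5 CPM in the others. Dlst, next to Pgf, stood at 314 CPM in STK11 WT replicate 3 against 335 to 337 CPM, and Agpat2, which overlaps the end of Egfl7, at 28.4 CPM in STK11 WT replicate 4 against 22.7 to 23.5 CPM.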

How the results depend on the processing

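The number of genes past the threshold was 9322 and lay between 8722 (at least 1 CPM in 4 libraries) and 10335 (no filter) under 17 alternatives; leaving out single libraries gave 8923 to 9656. All 119 list counts under alternatives were within 1.5 times the value reported. The count of endothelial identity genes moved most, at 10 of 12 tested as reported and 8 to 15 under alternatives. The 15 came with no filter, where 37 were tested, 21.6% of them higher and 18.9% lower. Over all genes, that fit had 18.7% higher and 19.4% lower. The members kept their direction under every alternative that gave a value. The log2 fold change lay between 1.73 and 1.90 for Vegfa, 2.00 and 2.19 for Pgf, -0.66 and -0.53 for Vegfb, -0.52 and -0.36 for Vegfc, -1.26 and -1.12 for Flt1, and -0.32 and -0.18 for Egfl7; Vwf, between -3.85 and -3.33, had no value with at least 1 CPM in 4 libraries, which it did not reach. Fitted values of Cd93 ranged from 8.53 to 10.67, since a fit against 0 counts depends on the prior. Of 42 other named genes that were followed one by one, 41 stayed past the threshold under every alternative that gave a value, and Rasip1 did not. Without STK11 KO replicate 1 or 4, or STK11 WT replicate 1, 3 or 4, its adjusted p was 0.0514 to 0.116 (edgeR quasi-likelihood test). List genes outside these 42 also lost calls. The inhibitors of vessel growth that were higher went from 4 to 3 without STK11 KO replicate 2 or 4. This was also so without STK11 WT replicate 1, 3 or 4. It was so too with DESeq2, upper quartile scaling, library size alone, the deposited values and the replicate block. The Vegfa regulators that were lower went from 4 to 3 without replicate 2 or 4 of either group and with the deposited values. The endothelial identity genes that were lower went from 4 to 2 without replicate 4 of either group. They went to 3 without any other library but STK11 KO replicate 3, and with the deposited values. Scaling by library size alone moved the median log2 fold change of all tested genes by -0.08. Same-numbered replicates had correlations of their deviations from group means between -0.098 and 0.036. So few pairs cannot exclude that cultures were paired by number, and the labels do not say. With the number as a replicate block, 9182 genes passed, and the list counts of the block fit were between 10 and 32. Ranked by CPM without length, Flt1 had rank 3 in STK11 KO and rank 2 in STK11 WT, and Vegfb rank 4 in STK11 KO and rank 3 in STK11 WT. In the 250 bases before the start alone, ACGTG lay in 16.6%, GCGTG in 28.2%, TGACGTCA in 1.55% and TGACG in 17.8% of all promoters. Depth limits Kdr, Flt4, Thbd and the STK11 KO level of Vwf.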

Other observations

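Further genes of the vessel lists, each singled out after its values were seen, were measured at low levels. Because of that choice, the adjusted p-values given with them are descriptions only. Hgf, hepatocyte growth factor, the ligand of Met, had 158 counts in STK11 KO, or 1.72 ± 0.669 CPM (SD, n = 4), and 0 counts in STK11 WT. Dll4, a Notch ligand of sprouting tip cells, had 1.91 ± 0.290 CPM in STK11 KO and 0.390 ± 0.0902 CPM in STK11 WT (log2 fold change 2.26 ± 0.27 SE; edgeR quasi-likelihood test, adjusted p = 1.75e-07). Adm, the vasodilator adrenomedullin, had 1.90 ± 0.446 CPM in STK11 KO and 0.272 ± 0.118 CPM in STK11 WT (2.77 ± 0.32, adjusted p = 9.71e-08), and Calcrl, the receptor it uses, 14.0 ± 2.21 CPM in STK11 KO and 9.31 ± 1.14 CPM in STK11 WT (0.58 ± 0.12, adjusted p = 0.000144), while the partner gene Ramp2 was at 0 in all libraries. Sele, E-selectin, had 10 counts in STK11 KO and 0 in STK11 WT.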
